A study of Ovis aries with 60 samples.

Results

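Whole-genome bisulfite sequencing of sheep sperm left a small set of autosomal CG cytosines with coverage far above the median of those listed. These very high coverage autosomal CG cytosines were defined on read depth in the F0 rams: on chromosomes 1 to 26, a cytosine was taken when its median coverage over the 10 F0 rams was at least 5 times the median of that value over all listed autosomal CG cytosines. That autosomal median was 22 reads, so the threshold was 110 reads. The rule returned 479 of 300610 listed autosomal CG cytosines (0.159%), out of 313527 listed CG cytosines in all. Coverage in F0 chose them, so their high coverage in F0 is a description and no result.

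The samples were sperm from Polypay rams of 3 generations. The 5 treated F0 rams (numbers 3, 5, 9, 11 and 23) received the control diet with a top dressing of encapsulated methionine (0.22% addition, 1.5 g) from weaning until puberty, and the 5 control F0 rams (4, 6, 10, 12 and 24) received the control diet alone. Each F0 twin pair was split between the diets. The F1 libraries were pools of sperm from several sons of each F0 ram, 5 pools per diet of the sire, and the F2 libraries were single grandsons, 10 per diet and 2 per F0 ram. F1 and F2 animals ate the control diet, and all ewes were untreated. Semen was washed and pelleted before storage, and the protocol for the DNA samples names no lysis of somatic cells.

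In mammals, methyl groups are placed mainly on cytosines followed by guanine, and the maintenance enzyme DNMT1 copies the mark onto the new strand after replication. Male germ cells erase most marks as primordial germ cells and write them anew before birth, with tandem repeats and satellite sequences among the regions whose sperm level often differs from that of somatic tissue. Reads from many near-identical repeat copies can be placed on the few copies an assembly holds, and the level there is then an average over copies. Whether that held for these cytosines was not tested, because no sequence of the build was used here. The gene, exon or repeat in which a cytosine lay was not determined either, for the same reason.

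Positions are given in Oar_rambouillet_v1.0 as listed. The 479 cytosines fell on 22 of 26 autosomes and formed 122 clusters when neighbours within 1000 bases were joined. They were unevenly spread, with 10 clusters of 6 or more cytosines holding 334 of them. Another 20 clusters of 2 to 5 held 53, and 92 cytosines stood alone. Chromosome 1 carried 228, followed by chromosome 19 with 33, chromosome 15 with 32, chromosome 25 with 27 and chromosome 4 with 26. The plus strand held 260 and the minus strand 219. Median coverage of the set was 163 reads and the highest was 2744 reads, with 178 cytosines at 10 times the autosomal median or more and 7 at 100 times or more. The 3 deepest cytosines lay within 21 bases of each other on the minus strand of chromosome 1, at 3018065, 3018076 and 3018085. At the other end, 8 cytosines sat exactly on the threshold of 110 reads, such as chromosome 2 position 56699327 with a level of 56.4%, and 5 sat just below it at 109.5 reads, such as chromosome 7 position 56723137 with a level of 75.6%.

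The largest cluster, chr1:3017048-3019046, held 175 of the 479 cytosines (36.5%) in 1999 bases. Its CG positions repeated at a fixed distance. Among the listed CG positions of this window, 817 bases was the commonest spacing within the cluster, and 73 of 74 positions that could have a partner one such step away had one. Methylation levels repeated along with the positions: the F0 mean levels at partnered positions had a correlation of 0.968 across the 73 pairs and a median gap of 1.65 points. Coverage did not repeat in the same way, since the ratio of coverage between partners ran from 0.0741 to 44.0. Partnered positions are neighbours on the same libraries, so this correlation is a description of these positions.

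**Figure D1:**
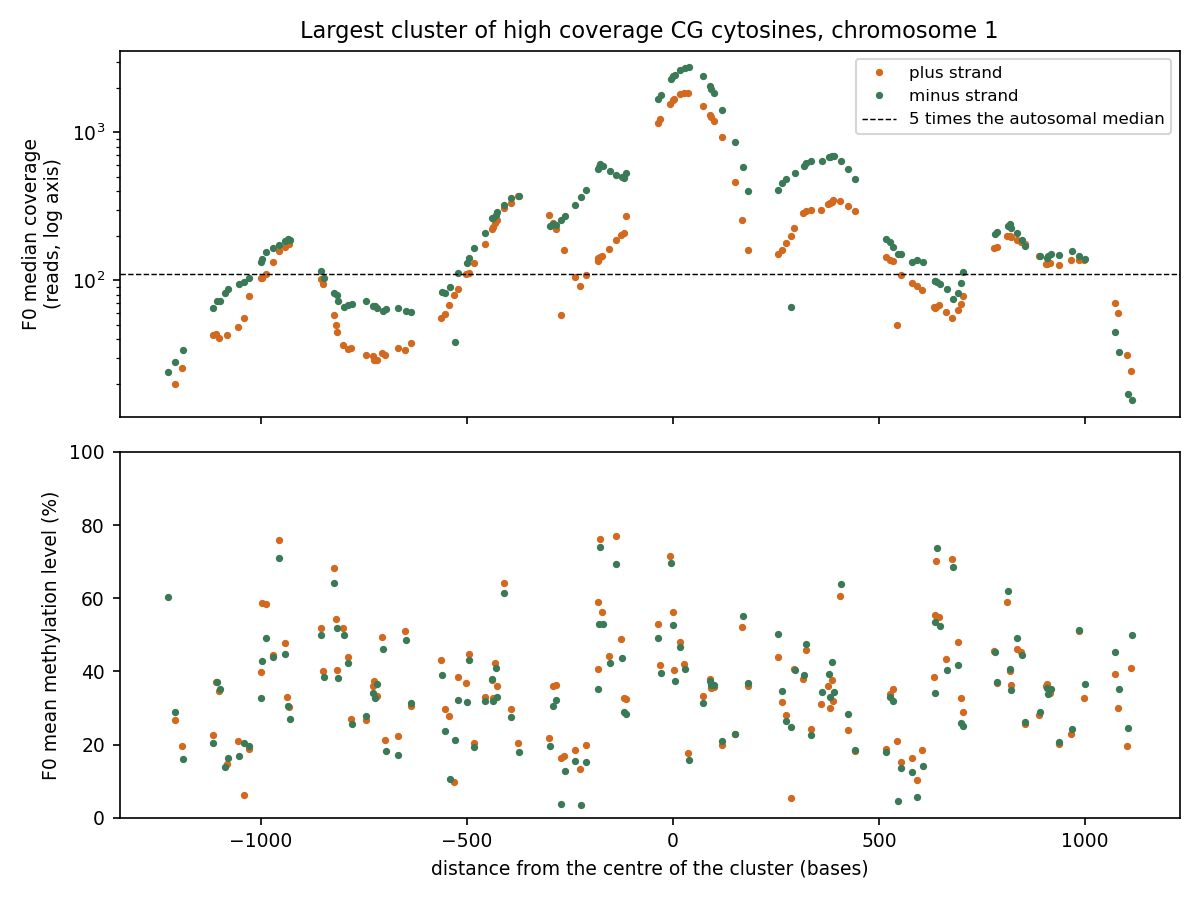
Median coverage over the 10 F0 rams (upper panel, log axis, with the threshold of 110 reads dashed) and F0 mean methylation level (lower panel, percent) of each listed CG cytosine in and around the largest cluster, against distance from its centre in bases and coloured by strand. Coverage rises to 2744 reads near the centre, while the pattern of levels recurs every 817 bases.

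A pair of clusters near the start of chromosome 15 had the same layout. At chr15:29834-29904 there were 8 of the cytosines and at chr15:31456-31562 there were 19. When the chromosome 15 window was slid along the chromosome 1 window, 42 of 67 CG positions coincided at the best shift. A shift 817 bases further gave 42 again. Shifts of 1, -816 and -1633 bases from the best one gave 22, 22 and 20, and the best shift unrelated to these gave 12. The F0 mean levels at the 42 coinciding positions had a correlation of 0.941 and a median gap of 3.66 points. Mean F0 levels were 36.8% in the large chromosome 1 cluster and 33.0% and 32.7% in the chromosome 15 clusters.

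A separate group of 3 clusters showed short CG spacing. At chr14:410715-410869 the 20 cytosines had a median coverage of 716.5 reads, the highest of any named cluster. The 18 cytosines at chr4:120998085-120998196 had a median of 357.5 reads, and the 6 at chr25:2502955-2503065 had 256. Distances of 22 bases between CG positions recurred 7 times on chromosome 14, 6 times on chromosome 4 and 5 times on chromosome 25, and distances of 11 bases recurred 4 and 6 times in the first pair. F0 mean levels were close to each other, at 75.1%, 76.0% and 73.9%. Coverage of the chromosome 14 and chromosome 4 clusters also moved together over samples: the ratio of their relative coverage stayed between 1.59 and 2.20 in the F0 rams, 1.50 and 2.25 in the F1 pools and 2.10 and 2.94 in the F2 rams.

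Several named clusters lay mostly or wholly on one strand. All 6 cytosines of the set at chr25:2502955-2503065 and all 8 at chr15:29834-29904 were on the minus strand. The plus strand was also listed there, at lower coverage. The plus-to-minus coverage ratio had a median of 0.281 over 5 CG sites on chromosome 25 and 0.693 over 7 on chromosome 15. At chr1:128499148-128505021, 30 of 36 cytosines were on the minus strand. Over the 61 CG sites listed on both strands there, the plus-to-minus coverage ratio had a median of 0.332 and ran from 0.0248 to 40.5, yet levels on both strands lay a median of 1.69 points apart. The cluster averaged 23.9%, the lowest of the named clusters. All 25 cytosines at chr19:52045747-52050024 were on the plus strand and averaged 91.7%, the highest level of the named clusters. The 21 at chr25:4427144-4427792, the 6 at chr6:53003467-53003805 and the 5 at chr3:177021963-177022466 were also on the plus strand, with F0 mean levels of 36.4%, 54.6% and 63.1%. Across the whole set, 108 CG sites had both of their cytosines in it, with a median gap of 2.37 points between strands, while 204 cytosines had no listed partner on the other strand.

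Methylation of the set was low beside that of the listed autosomal CG cytosines. The F0 mean level was 47.1% with a median of 39.6%. Over all listed autosomal CG cytosines the mean was 75.6% and the median 88.9%. Here and below, values over all, other or remaining autosomal cytosines cover listed cytosines only. Listing itself selected on read depth, so these values do not describe the whole autosomal genome. Intermediate levels dominated: 248 of 479 (51.8%) lay between 20 and 50%, against 14.1% of all autosomal CG cytosines. Levels of 90% or more were reached by 39 (8.14%), against 47.8%. The mean over the set was lower than that over the remaining autosomal cytosines in 10 of 10 F0 rams, by 28.6 ± 5.31 points (SD, n = 10). It was lower in 10 of 10 F1 pools by 27.1 ± 3.18 points (SD, n = 10) and in 20 of 20 F2 rams by 26.7 ± 9.02 points (SD, n = 20). With at least 20 reads required in each sample the F2 gap was 15.6 ± 5.75 points, still lower in 20 of 20. When each cluster counted once, the F0 gap was 23.5 points, so the largest cluster did not carry it alone. The 92 cytosines that stood alone had an F0 median of 41.9%, close to that of the set.

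Non-CG methylation separated the same groups of clusters. In the F0 rams, CHG cytosines (H is A, C or T) averaged 0.402% over the autosomes. Within the chromosome 14, chromosome 4 and chr25:2502955-2503065 clusters the CHG cytosines averaged 5.92%, 2.88% and 5.79%, from 12, 7 and 10 cytosines. The lowest ram was at 4.85%, 1.89% and 3.07%, above the autosomal mean of every ram, of which the highest was 0.419%. In the large chromosome 1 cluster 232 CHG cytosines averaged 0.354%, and in the chromosome 15 clusters the means were 0.363% and 0.562%. Of 930 CHG cytosines inside all clusters, 13 (1.40%) reached a mean of 5% or more, against 5140 of 2158664 (0.238%) over the autosomes, and 5 each lay in the chromosome 14 and chr25:2502955-2503065 clusters. Unmethylated cytosines that escaped bisulfite conversion also read as methylated, and their share here was not tested.

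The positions largely kept their levels in the sons and grandsons, and their depth in the sons but not evenly in the grandsons. All 479 were listed in F1, and 390 (81.4%) were again at 5 times that generation's autosomal median or more. They made up 92.9% of the F1 cytosines at that depth. F2 listed all but 30, and 262 (58.4% of those listed) passed 5 times. Of these 30, 19 belonged to the chr25:4427144-4427792 cluster, which kept 2. A cytosine was listed only if every sample of its generation had at least 10 reads, and F2 had 20 samples instead of 10. Depth moved in both directions in F2. The chromosome 6 cluster averaged 16.5 (treated) and 12.6 (control) times the sample's autosomal median in F0, and 3.69 and 3.92 times in F2. The chromosome 14 cluster averaged 30.3 and 28.2 times in F0, and 83.6 and 107 times in F2. Cytosines that stood alone had a median coverage of 118 reads in F0 and 68 in F2. F0 and F1 mean levels had a correlation of 0.995 across the 479 cytosines with a median gap of 1.92 points. Between F0 and F2 it was 0.988 across those listed in both, with a median gap of 3.29 points. F2 mean levels were the higher at 406. Those means include single F2 rams with 62.0 to 66.7% over the set. The median sample stood at 46.1% in F0 and 46.5% in F2, over the cytosines of the set listed in each. Whether F2 levels stay the higher without the highest rams was not tested, and the share over all listed cytosines was not determined. These correlations are across cytosines in shared libraries and are descriptions.

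Relative coverage, the reads on a cytosine divided by the sample's own autosomal median, varied widely from sample to sample. Averaged over the set it was 15.8, 7.57, 17.1, 14.6 and 15.7 in treated F0 rams 3, 5, 9, 11 and 23. In control rams 4, 6, 10, 12 and 24 it was 10.4, 10.0, 16.6, 22.2 and 14.9. The diets overlapped, with treated rams at 14.2 ± 3.79 and control rams at 14.8 ± 4.98 (SD, n = 5 each). F1 pools of treated sires averaged 13.6 ± 4.61 and those of control sires 11.7 ± 3.13 (SD, n = 5 each). Without pool 3 of the treated sires, at 21.3, the difference went from 1.89 to -0.0349. In F2 the treated line averaged 24.1 ± 6.47 and the control line 30.9 ± 15.8 (SD, n = 10 each), again with overlap. Without ramF2_400.24C, left out after seeing the data, the control line averaged 26.6 and the difference went from -6.84 to -2.50. The ram ramF2_400.24C, a grandson of control sire 24 (each F2 name ends in the number of the F0 sire and T or C for its diet), stood apart at 70.0, and it had the lowest autosomal median coverage of the F2 rams, 12 reads. Its share of autosomal reads on the cytosines of the set was 21.6%, against 6.15 to 15% in the other F2 rams. A larger number of copies in a ram and a more efficient recovery of its reads cannot be told apart from these counts.

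**Figure D2:**
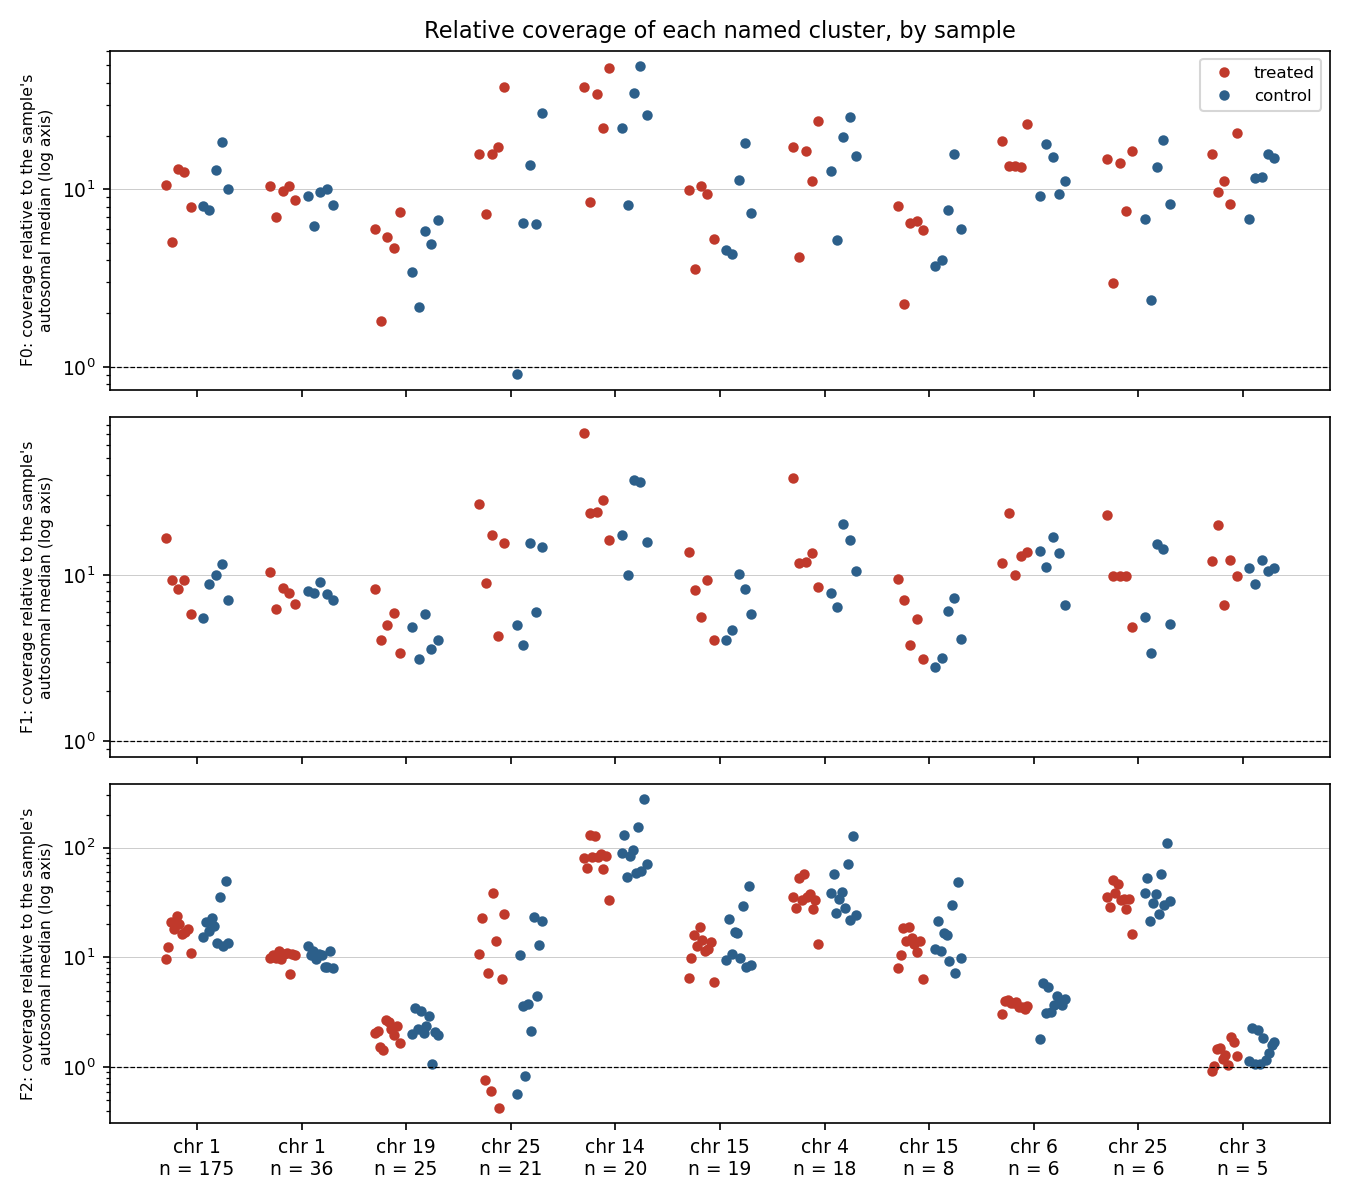
Median relative coverage (log axis, 1 dashed) of each named cluster in each sample, with F0, F1 and F2 from top to bottom, clusters ordered by number of cytosines and points coloured by diet of the F0 sire. The chromosome 25 cluster of 21, of which 2 were listed in F2, spans 0.906 to 37.9 in F0, and the chromosome 14 cluster reaches 274 in an F2 control ram.

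Single clusters differed in how much their coverage varied. Relative coverage of the chr25:4427144-4427792 cluster was 15.8, 7.30, 15.9, 17.3 and 37.9 in treated F0 rams 3, 5, 9, 11 and 23, and 0.906, 6.46, 13.7, 6.37 and 27 in control rams 4, 6, 10, 12 and 24. The treated ram was higher in 5 of 5 consecutively numbered pairs, by a mean of 7.93, although the groups overlapped. In F1 the treated pool was higher in 4 of 5 pairs. The cluster at chr1:128499148-128505021 was the steadiest of those with more than 20 cytosines, at 6.21 to 10.5 over the F0 rams. Its treated ram was also higher in 5 of 5 F0 pairs, by a mean of 0.629, and the treated pool in 2 of 5 F1 pairs. These were the only named clusters with 5 of 5. In the other named clusters the treated ram was higher in 1 to 4 of 5 F0 pairs. Over the whole set it was higher in 3 of 5, with a mean difference of -0.663.

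Mean levels over the set overlapped between diets in each generation. In F0 the treated rams 3, 5, 9, 11 and 23 had 48.7, 47.0, 43.5, 43.9 and 57.5%, and control rams 4, 6, 10, 12 and 24 had 47.6, 45.3, 43.3, 41.6 and 52.4%. Treated rams averaged 48.1 ± 5.68% and control rams 46.0 ± 4.21% (SD, n = 5 each), a difference of 2.06 points. Within the consecutively numbered pairs the treated ram was higher in 5 of 5, with differences of 0.185 to 5.06 points. Over the remaining autosomal cytosines the treated ram was the lower of each pair. Treated rams 3, 5, 9, 11 and 23 had 76.1, 74.2, 76.3, 74.8 and 73.6% there. Control rams 4, 6, 10, 12 and 24 had 76.4, 76.1, 76.7, 75.3 and 76.8%. Unlike the set as a whole, the chromosome 19 cluster had the treated ram higher in 0 of 5 F0 pairs (mean difference -2.95 points). In F1 its treated pool was higher in 1 of 5 pairs (mean difference -2.16 points). The chromosome 6 cluster had the treated sample higher in 2 of 5 pairs in F0 and F1, with mean differences of -0.732 and -0.974 points. Without treated ram 23 the difference of group means over the set turned to -0.280. Without both ram 23 and its consecutive number 24 it was 1.31, and with each cluster counted once it was -0.499. No p is attached to these means, because the cytosines were chosen with earlier results of these data known.

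**Figure D3:**
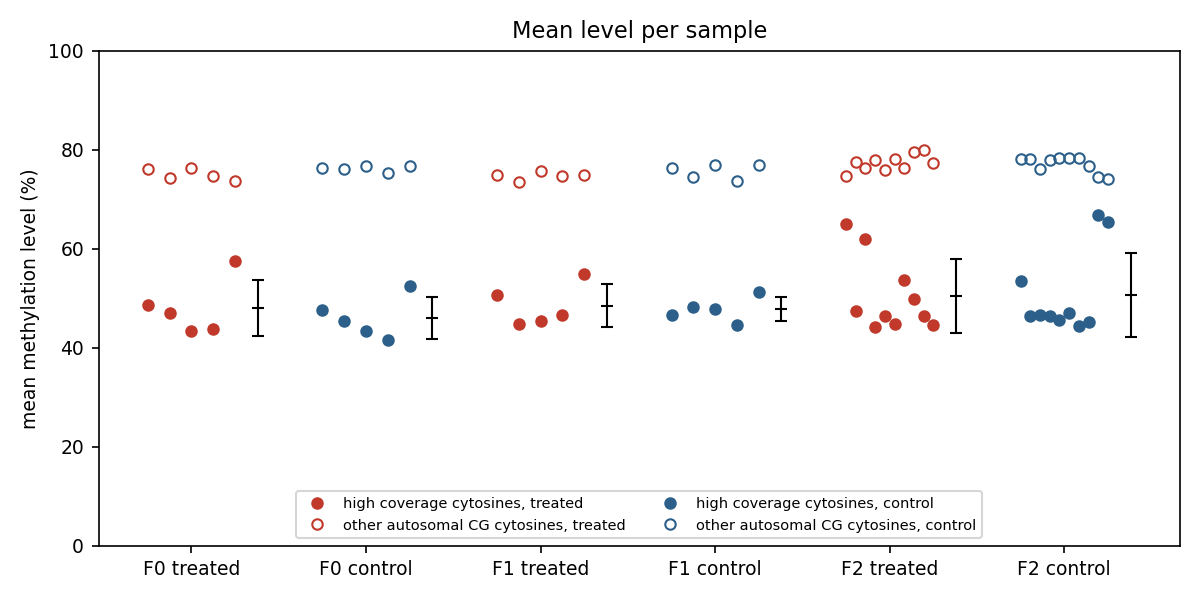
Mean methylation level (percent) over the high coverage cytosines (filled) and over all other autosomal CG cytosines (open) in each sample, by generation and diet of the F0 sire, with the group mean ± SD of the high coverage cytosines in black. Every filled point lies below the open points, and 4 F2 rams, 2 per diet, sit between 62.0 and 66.7%.

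F1 pools of treated sires 3, 5, 9, 11 and 23 had 50.7, 44.8, 45.3, 46.7 and 55.0%, and those of control sires 4, 6, 10, 12 and 24 had 46.7, 48.2, 47.9, 44.6 and 51.3%. The means were 48.5 ± 4.30% and 47.7 ± 2.44% (SD, n = 5 each), and the treated pool was higher in 3 of 5 pairs. As in F0, the pools of sires 23 and 24 were the highest of their groups. In F2 the treated line ran from 44.2 through a median of 46.9 to 65.1%, and the control line from 44.3 through 46.5 to 66.7%. The means were 50.4 ± 7.5% and 50.7 ± 8.47% (SD, n = 10 each), a difference of -0.280 points. Rams of one sire share ancestry, so the 10 F2 values of a group are not 10 independent families.

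Rams with a high mean shared a pattern over clusters. The large chromosome 1 cluster holds 175 of the 479 cytosines in that mean, so its share in the pattern holds in part by construction. In F0 the large chromosome 1 cluster stood at 56.6% in ram 23 and 45.6% in ram 24, against 27.3 to 38.9% in the other rams. The chr25:4427144-4427792 cluster stood at 61.9% and 53.4% in the same rams, against 23.3 to 42.3%. The chromosome 19 cluster went the other way, with its lowest levels in the same rams, 83.3% and 88.7%, against 89.0 to 96.0% in the other 8. In the large chromosome 1 cluster the gaps between consecutively numbered rams had a median of 3.16 points while all 10 rams ranged over 29.3 points, and in the chromosome 14 cluster the median gap was 2.75 points and the range 21.6. Other clusters lay on both sides of these values, with a median gap of 2.94 points in a range of 34.7 in the chr15:31456-31562 cluster, 8.51 in 38.6 in the chr25:4427144-4427792 cluster and 2.88 in 9.68 on chromosome 6. A gap between 2 rams is smaller than the range of 10 by construction. The chromosome 14 cluster did not follow the same order, being at 81.8 to 86.1% in rams 3, 4, 9 and 10 and at 64.6 to 75.2% in the rest.

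**Figure D4:**
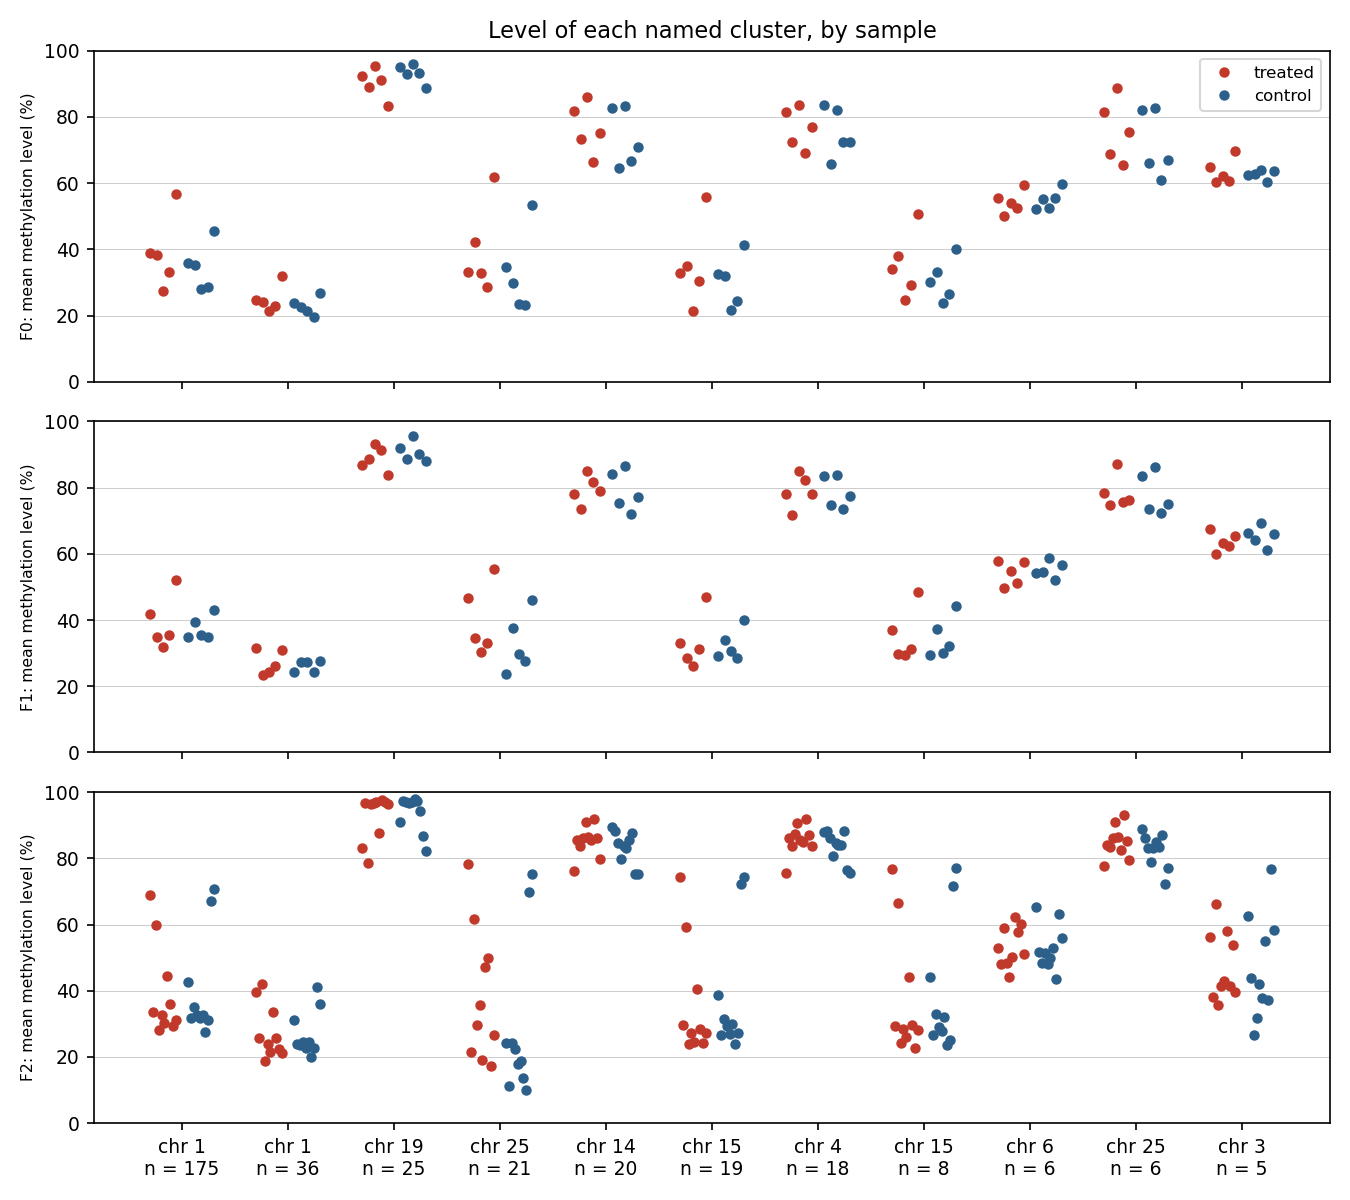
Mean methylation level (percent) of each named cluster in each sample, with F0, F1 and F2 from top to bottom, clusters ordered by number of cytosines and points coloured by diet of the F0 sire. In F2 the large chromosome 1 cluster lies at 59.7 to 70.7% in 4 rams and at 27.7 to 44.6% in the other 16, with both diets in each range.

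In F2 the same clusters separated 4 rams from the rest. The large chromosome 1 cluster was at 68.9% in ramF2_480.3T and 59.7% in ramF2_320.5T of the treated line and at 67.2% in ramF2_400.24C and 70.7% in ramF2_409.24C of the control line, and at 27.7 to 44.6% in the other 16. The chromosome 19 cluster was at 83.2, 78.6, 86.7 and 82.2% in these rams, against 87.7 to 97.9%. Levels over the remaining autosomal cytosines in these rams were 74.7, 76.4, 74.5 and 74.1%, so that ramF2_320.5T lay within and the other 3 below the range of 75.8 to 80% of the remaining rams. The grandsons of sire 23, ramF2_323.23T and ramF2_329.23T, were at 29.4% and 31.1% in the large chromosome 1 cluster, whereas those of sire 24 were ramF2_400.24C and ramF2_409.24C.

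RNA counts from the same F2 semen gave marker levels beside this pattern. Counted RNA reads ran from 805831 to 13137757 per library, so low CPM values can rest on few reads. Of 8 sperm and late spermatid genes (PRM1 and TNP1, which package sperm DNA, ODF1, AKAP4, SMCP, SPATA18, TSSK6 and GAPDHS), all 8 were counted in at least 10 rams, and their summed level ran from 33.3 to 9942 CPM over the 20 rams with a median of 436. The rams ramF2_480.3T, ramF2_320.5T, ramF2_400.24C and ramF2_409.24C had 179.5, 190, 246 and 316 CPM, and 6 other rams with lower levels in the large cluster had 33.3 to 267. Of 4 leukocyte genes, PTPRC (the pan-leukocyte surface phosphatase), CD74 and LYZ (lysozyme) were counted and CD52 had no row. Their sum was 173, 387, 166 and 331 CPM in the same rams and 39.1 to 921 over all 20. Of 4 squamous epithelium keratins, KRT5 and KRT4 were counted and KRT13 and KRT14 had no rows. Their sum was 3857, 2846, 4373 and 6741 CPM, all above the median of 2396 and within 22.9 to 7593 over all 20. Nearly all of it was KRT4, with KRT5 at 0.165 to 5.21 CPM in these 4 rams, and the 2 highest sums were in rams with low levels in the large cluster, ramF2_323.23T and ramF2_468.10C. Markers of other cells were thus counted in each F2 sample, the RNA had passed a somatic cell lysis that the DNA protocol does not name, and the part of cell makeup in the levels was not tested.

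Diet differences at single cytosines were tested with a likelihood-ratio test on the reads summed per group, with Benjamini-Hochberg adjustment over all listed CG cytosines of the generation. Differentially methylated cytosines (DMCs) were those that differed by 20 points or more with an adjusted p no greater than 0.01. In F0, 1 of 479 cytosines (0.209%) was a DMC, against 1.82% of all listed CG cytosines. In F1 it was 0 of 479, against 1.00%. In F2 it was 2 of the cytosines listed there (0.445%), against 2.19%. No cytosine of the set was a DMC in more than 1 generation. With limma on the levels of single samples, no cytosine of the set passed the same thresholds in any generation, and at an unadjusted p below 0.05 there were 7 (1.46%) in F0, 4 (0.835%) in F1 and 3 (0.668%) in F2. All listed CG cytosines gave 4.11%, 4.82% and 2.96%, and limma called 0 of them. With the consecutive F0 numbers as a replicate block the F0 count at an unadjusted p below 0.05 went to 38 (7.93%), against 5.71% of all. The same block gave 6 (1.25%) in F1, against 5.69%, and 4 (0.891%) in F2, against 3.33%.

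Without the 20-point minimum the picture differed. In F0, 54 of 479 (11.3%) had an adjusted p of at most 0.01 in the likelihood-ratio test, against 2.91% of all listed CG cytosines, with 46 higher in the treated group (9.60%) and a median absolute difference of 5.05 points. In F1 it was 22 (4.59%), against 1.50%, with 17 higher in the treated group (3.55%). In F2 it was 143 (31.8%), against 6.63%, with 46 higher (10.2%) and 97 lower in the treated line and a median absolute difference of 3.57 points. All listed CG cytosines with such a p and a higher treated level made up 1.24%, 0.666% and 3.28% in F0, F1 and F2. Deeper reads give smaller p for the same difference, and this test takes reads and not rams as its unit. The SD between samples of a group was a median of 2.49 times the SD that counting alone gives in F0, 1.90 times in F1 and 3.71 times in F2. Over all autosomal CG cytosines these ratios were 1.16, 1.10 and 1.41. Greater depth alone lowers the counting SD, which had a median of 3.35, 3.46 and 2.76 points in the set. Over all autosomal CG cytosines it was 6.28, 6.46 and 5.90 points. The SD between samples itself had a median of 8.45, 6.26 and 12.5 points in the set, against 7.38, 7.09 and 9.14 over all. The counts also hung on single samples. Without control ram 12 the F0 count was 20 (4.18%, against 3.16% of all), with 11 higher in the treated group, so that little of the excess over all cytosines was left. Without treated ram 23 it was 32 (6.68%, against 2.93%), with 17 higher. It was 102 without treated ram 11 (92 higher), 109 without treated ram 9 (94 higher) and 126 without control ram 24 (112 higher), which is 21.3%, 22.8% and 26.3% against 3.34%, 3.22% and 3.51% of all. The F1 count was 6 (1.25%) without treated pool 3, with 3 higher in the treated group, and also 6 without treated pool 23, with 2 higher. Shares of all cytosines were then 1.57% and 1.33%, so that no excess was left in the set. The count was 35 without treated pool 11 (30 higher), 53 without control pool 24 (48 higher) and 61 without treated pool 9 (55 higher), which is 7.31%, 11.1% and 12.7% against 1.60%, 1.85% and 1.36% of all. Without ramF2_480.3T, ramF2_320.5T, ramF2_400.24C and ramF2_409.24C, a choice made after seeing the data, the F2 count was 55 (12.2%), against 6.92% of all listed CG cytosines. Of these, 41 were higher in the treated line (9.13%, against 3.55% of all), so that the prevailing direction was the opposite one.

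Directions over the set followed no single course. The treated group was higher at 339 of 479 cytosines (70.8%) in F0, against 38.4% of all autosomal CG cytosines, at 56.2% in F1 against 41.5%, and at 36.3% in F2 against 53.3%. Cytosines that stood alone differed from the set: 41 of 92 (44.6%) were higher in the treated group in F0, 43 of 92 (46.7%) in F1 and 51 of 89 (57.3%) in F2. Cytosines of a cluster share reads and are not independent of one another. Median absolute differences were 2.88, 1.91 and 2.55 points in F0, F1 and F2, against 3.14, 3.0 and 2.15 points over all autosomal CG cytosines.

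**Figure D5:**
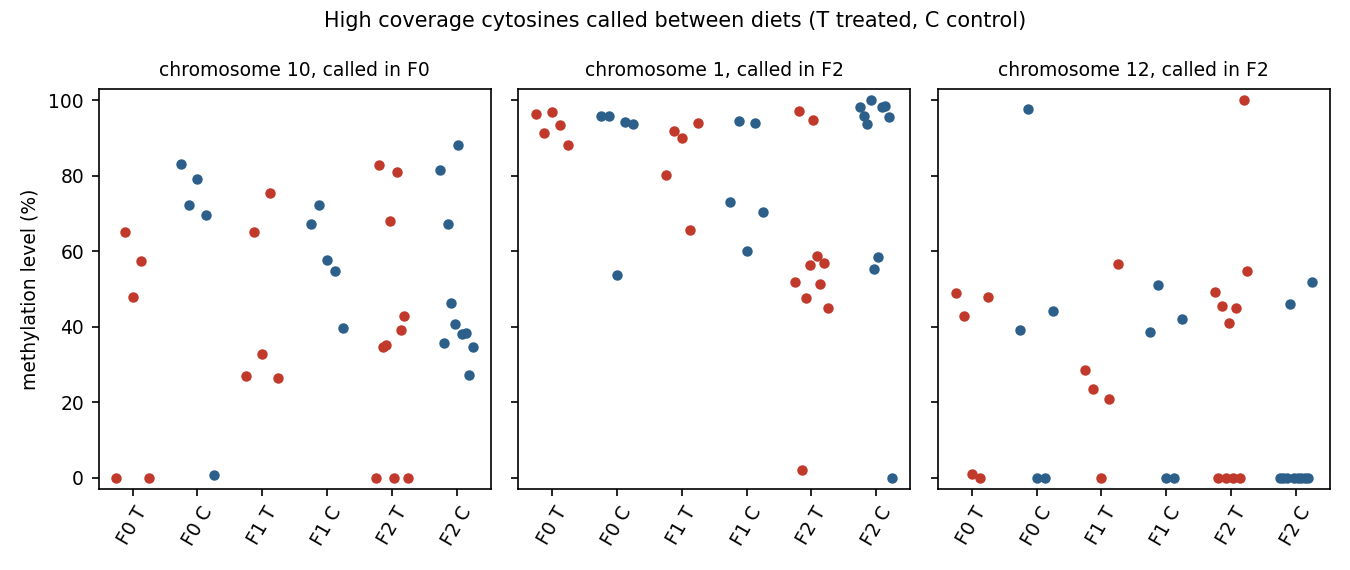
Methylation level (percent) of the 3 high coverage cytosines called between diets, in each sample by generation and diet of the F0 sire (T treated, C control). Treated and control samples overlap in each generation, and on chromosome 12 single rams reach 0 as well as 97.6% (F0) and 100% (F2).

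The 3 called cytosines all stood alone and had large spreads between rams. The F0 DMC, chromosome 10 position 76461623 on the plus strand, had 0, 65.2, 48.0, 57.4 and 0% in treated rams 3, 5, 9, 11 and 23 and 83.2, 72.2, 79.1, 69.6 and 0.833% in control rams 4, 6, 10, 12 and 24. Rams of both diets were at or near 0 and the groups overlapped. The difference on summed reads was -24.3 points with an adjusted p of 3.85e-14 in the likelihood-ratio test, while the means were 34.1 ± 31.7% and 61.0 ± 34.1% (SD, n = 5 each) with p = 0.175 in a two-sided exact permutation test over rams. Within consecutively numbered pairs the treated ram was lower in 5 of 5, and the exact permutation test of signs over pairs, added after seeing the data, gave p = 0.0625, the smallest that 5 pairs allow. In F1 the treated pool was lower in 4 of 5 pairs (p = 0.3125, same exact test). The F1 difference on summed reads was -16.1 points, with p = 0.325 in the exact permutation test over pools. In F2 the difference was -8.31 points, with an adjusted p of 0.0436 in the likelihood-ratio test. A two-sided permutation test over F2 rams gave p = 0.361. There, 3 treated grandsons were at 0 and no control grandson was below 27.3%. The F2 medians were 37.2% (treated) and 39.7% (control), and the highest grandsons were at 82.8% and 88.2%.

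Both F2 DMCs showed the same kind of spread. In F2 their median coverage was 58.5 reads (chromosome 1) and 69 reads (chromosome 12), against an autosomal median of 24.5. Neither was thus at 5 times that median in the generation in which it was called. At chromosome 1 position 86832365 on the plus strand the treated line ran from 2.04 through a median of 54.2 to 97.1% and the control line from 0 through 95.7 to 100%. The means were 56.2 ± 26.6% and 79.4 ± 32.6% (SD, n = 10 each), with p = 0.107 in a two-sided permutation test over rams. At chromosome 12 position 21147365 on the plus strand the treated line ran from 0 through 42.9 to 100% and the control line from 0 through 0 to 51.9%. Means were 33.5 ± 33.2% and 9.81 ± 20.7% (SD, n = 10 each), with p = 0.0964 in the same test. Differences on summed reads were -22.6 and 21.5 points, with adjusted p of 7.64e-15 and 2.66e-20 in the likelihood-ratio test. The permutation tests, which take rams as their unit, did not pass 0.05 for either cytosine. They treat the 2 rams of an F0 sire as independent, although these share ancestry and the diet was given to the F0 sires. In F0 the chromosome 12 cytosine was at 0.980% or below in 4 rams, at 39.2 to 48.9% in 5 and at 97.6% in control ram 6, with both diets in the first pair of ranges. The F0 differences on summed reads were 3.90 points for the chromosome 1 cytosine and -11.6 points for the chromosome 12 cytosine. Control ram 10 was at 53.8% on chromosome 1 and control ram 6 at 97.6% on chromosome 12, each outside the range of the other F0 rams. Within consecutively numbered pairs the treated ram was lower in 3 of 5 on chromosome 1 and in 1 of 5 on chromosome 12.

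Cytosines at which the diets did not overlap at all were few. In F0 it was 1 of 479 (0.209%), against 0.575% of all listed CG cytosines. At that cytosine, chromosome 8 position 45664368 on the plus strand, treated rams 3, 5, 9, 11 and 23 had 55.6, 51.8, 56.4, 53.9 and 52.7% and control rams 4, 6, 10, 12 and 24 had 58.4, 62.3, 68.6, 67.7 and 69.2%. The treated rams were the lower, by 11.2 points on average. It was 7.41 points lower in the F1 pools, with overlap, and 8.60 points higher in the treated line of F2. In F1 it was again 1 of 479 (0.209%), against 0.670%, at chromosome 21 position 34707046 on the plus strand. Treated pools 3, 5, 9, 11 and 23 had 78.9, 81.6, 79.9, 81.4 and 80.6% and control pools 4, 6, 10, 12 and 24 had 88.2, 82.8, 85.8, 86.2 and 87.3%. The difference was -5.58 points there, -4.44 points in F0 and -0.122 points in F2. In F0 the treated ram was lower in 5 of 5 consecutively numbered pairs, although the groups overlapped. For the chromosome 8 cytosine the treated pool was lower in 3 of 5 such pairs in F1. In F2 no cytosine of the set separated the lines, against 0.000817% of all.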

How the data were processed

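The deposited files hold read counts, without normalization. Per the study's methods, bisulfite reads were trimmed with Trim Galore, aligned to Oar_rambouillet_v1.0 with Bismark (Bowtie2), deduplicated and counted with methylKit by the authors, who kept cytosines that all samples of a generation covered with 10 reads or more. Strands stay separate. Reads that map equally well to several places are placed or dropped by the aligner, and deduplication removes reads of equal position, so counts at the deepest positions depend on both steps. CG counts of 3 generations, F0 CHG counts and F2 RNA gene counts, deposited raw after Trimmomatic and STAR per the labels, were used. CHH and the other CHG files, and 50 columns of unmethylated reads, were not used. Total reads on listed CG cytosines were 6990542 to 11196931 (F0), 5813017 to 10562538 (F1) and 3735916 to 5585871 (F2) per sample.

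The level is methylated reads over reads, in percent. Means over the set weight cytosines equally. The likelihood-ratio test of a logistic model on reads summed per group, methylKit's default, was computed with SciPy 1.17.1 and tested on simulated data, with Benjamini-Hochberg adjustment. limma 3.58.1 in R 4.3.3 was fitted to levels of all listed CG cytosines. Permutation tests were exact for 5 against 5 and used 100000 resamples for 10 against 10. CPM are RNA counts scaled to the library's total. The alternatives tried were other depth thresholds, scaled coverage, cluster means, 20 reads at least, 25 points, limma with and without a block, and leaving out samples. Leaving out single F2 rams was not planned.

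Consecutive F0 numbers (3 and 4, 5 and 6, 9 and 10, 11 and 12, 23 and 24) deviated together: the correlations of deviations from the group means over autosomal CG levels were 0.220 to 0.325 in F0 and 0.105 to 0.129 in F1, and each treated sample correlated best with its own neighbour. The labels state that twins were split between diets and do not name the twins.

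The set and the lists were chosen with earlier results of these data known. Permutation tests of means over the set had been planned and are not given for that reason. Named were the 10 clusters with most cytosines and the 5 of highest coverage (11 in all), the deepest cytosines, those nearest the threshold, DMCs and cytosines without overlap. F2 rams include 2 per sire, and each F1 library pools several rams.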

Additional observations from a re-analysis of the deposited data

Results flagged for a closer look

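For each group of 5 or 10 samples, the highest and the lowest sample were compared with their nearest neighbour over the range of the group. The 174 groups covered the mean level and relative coverage of the set, those of the named clusters and the levels of the named cytosines, and in 15 of them (8.62%) a sample stood apart, 10 different samples in all. Chance flags about 1 in 20 groups, but these measures overlap and are not independent of one another. The ram ramF2_400.24C of the F2 control line gave 4 of them, all in relative coverage: 70.0 over the set against 45.0 in the next ram, 274 in the chromosome 14 cluster against 155, 127 in the chromosome 4 cluster against 70.5, and 109 in the chr25:2502955-2503065 cluster against 57.1. F1 pool 3 of the treated sires gave 3, with relative coverage of 71.3 in the chromosome 14 cluster against 28.0, 38.4 in the chromosome 4 cluster against 13.6, and 22.9 in the chr25:2502955-2503065 cluster against 9.86. Both samples stood apart in the 3 clusters with CG spacing of 22 bases.

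The other flags concerned single values. Treated F0 ram 5 had the lowest relative coverage over the set in its group, 7.57 against 14.6. F2 ram ramF2_340.11T of the treated line had 7.11 in the chr1:128499148-128505021 cluster against 9.70. F1 treated pool 5 had 23.7 in the chromosome 6 cluster against 13.8. In levels, F2 ram ramF2_480.3T had 75.6% in the chromosome 4 cluster against 83.6%, and F1 treated pool 9 had 87.2% in the chr25:2502955-2503065 cluster against 78.4%. At the cytosines called between diets, control F0 ram 24 had 0.833% on chromosome 10 against 69.6%. On chromosome 1 at 86832365, control F0 ram 10 had 53.8% against 93.7%, and F2 ram ramF2_409.24C of the control line had 0% against 55.4%. The causes of these values were not tested.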

How the results depend on the processing

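The lower level of the set than of the other autosomal cytosines kept its direction under each alternative. It moved by more than 1 SD in F1 when each cluster counted once (-23.1 points) or with at least 20 reads (-23.2), and in F2 with at least 20 reads (-15.6). With that minimum the mean of the set went from 50.6 to 49.8% in F2 and that of the other cytosines from 77.2 to 65.4%, with 3150 of 100715 left; in F1 they went from 48.1 to 48.0% and from 75.2 to 71.2%. DMC counts were small, and those of F0 and F2 moved with several settings. The F1 count of 0 moved only when single samples were left out. The F0 count of 1 became 0 with limma, limma with the replicate block, 25 points or members at 10 times the median. The F2 count of 2 became 0 with the same settings and 1 with coverage scaled per ram. Leaving out 1 sample gave 0 to 2 in F0 (0 without treated ram 3 or 23, 2 without control ram 6, 12 or 24) and 0 to 1 in F1 (1 without treated pool 11 or control pool 24). Without rams 23 and 24 in F0, and without ramF2_480.3T, ramF2_320.5T, ramF2_400.24C and ramF2_409.24C in F2, chosen after seeing the data, the DMC counts stayed 1 and 2, and the F2 difference of mean level was 0.279 points. Without rams 23 and 24 the F0 count at an adjusted p of at most 0.01 was 32 (6.68%, 28 of them higher in the treated group), against 2.85% of all. Differences of mean level between diets ran from -0.280 to 3.66 points in F0 and -0.874 to 1.68 in F1 when 1 sample was left out, and those of relative coverage from -1.86 to 1.17 and -0.0349 to 3.05. Pairing by consecutive numbers (replicate block) leaves these means at 2.06, 0.744 and -0.280 points by construction. In limma the block moved the F0 count at an unadjusted p below 0.05 from 7 to 38, and no call at the thresholds for DMCs differed between limma with and without it. The set had 178 cytosines at 10 times the median and 438 with coverage scaled per ram, 427 of them shared, and 120 clusters at a 5000-base gap. Levels in F2 rested on as few as 10 reads in a ram.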
